A study of Mus musculus with 8 samples.

Results

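The genes of the lysosomal proton pump, of the lysosomal proteases called cathepsins and of the lysosome-associated membrane proteins were described in dorsal root ganglia, the clusters of sensory neuron cell bodies beside the spinal cord. They were chosen by symbol, as all genes named Atp6v0 or Atp6v1 followed by a subunit letter, Atp6ap1, Atp6ap2, the cathepsin genes Ctsa to Ctsz without Ctss and Ctsg, and Lamp1 to Lamp5, with pseudogene entries left out. This gave 44 of 48315 gene symbols: 9 genes of the membrane sector V0 of the pump, 13 of its cytosolic sector V1, 2 of accessory subunits, 16 cathepsin genes and 4 Lamp genes. Of the 44, 33 had a mean of at least 1 CPM (reads per 1000000 counted reads) over the libraries and entered the tests, together with 14505 genes in all, and 11 did not.

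RNA came from ganglia of wild-type SW mice treated with saline, and the design set 4 libraries labelled male (male 1 to male 4) against 4 labelled female (female 1 to female 4). All 8 share genotype, strain and treatment, and no age is given in the labels. Where the values of all libraries are given, they run from male 1 to male 4 and then from female 1 to female 4. Only the 3′ ends of transcripts were sequenced, so long and short transcripts count alike, and CPM levels were compared between genes without division by length. Nothing in the labels says whether a library holds 1 animal or several, so the spread that the p-values rest on may be in part technical.

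The vacuolar ATPase is a rotary pump. Its V1 sector splits ATP in the cytosol and turns a rotor, and its V0 sector uses that turn to carry protons across the membrane into lysosomes, endosomes and, in neurons, synaptic vesicles. Cathepsins digest proteins in the acid it maintains, and the LAMP proteins are the heavily glycosylated coat of the lysosomal membrane. Sensory neurons keep large cell bodies and long axons for life and depend on lysosomes to clear what returns from the axon.

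The libraries held 7497800 to 12155800 counted reads, so that 3 reads correspond to 0.247 to 0.400 CPM. Markers of neurons were present throughout, with a summed level of the 10 listed genes (all of them tested) of 10751 to 16689 CPM by male label and 13782 to 21525 CPM by female label. The sex genes of both replicate 1 libraries went against their labels: Xist, the RNA that silences an X chromosome in female cells, stood at 294 CPM in male 1 and 0.270 CPM in female 1, and the Y-linked Ddx3y at 0.855 and 102 CPM. The comparison by sex label was therefore run with all 8 libraries and with the 6 numbered 2 to 4. Male 2 also held 311 CPM of 8 central nervous system markers, against at most 22.2 CPM elsewhere. The first principal component took 59.3% of the variance and put male 1, male 2, male 3 and female 2 on one side and male 4, female 1, female 3 and female 4 on the other.

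The upstream sequences of 3 genes are shown because the E-box CACGTG lies at the core of the element bound by TFEB, a transcription factor that activates lysosomal genes, and these genes carry it in different numbers. They are the bases before the transcription start of the promoter table that no annotated exon covers, from RefSeq, build GRCm38.p6, on the strand of the gene, with CACGTG in capitals. Lamp1 is at chr8:13158911-13159160 on the plus strand, Atp6v0b at chr4:117887334-117887579 and Atp6v1a at chr16:44139306-44139461, both on the minus strand. Some GENCODE transcripts of Atp6v1a start farther upstream than the RefSeq start used here, so its stretch lies within the span of the gene given with its values and outside its exons.
Lamp1: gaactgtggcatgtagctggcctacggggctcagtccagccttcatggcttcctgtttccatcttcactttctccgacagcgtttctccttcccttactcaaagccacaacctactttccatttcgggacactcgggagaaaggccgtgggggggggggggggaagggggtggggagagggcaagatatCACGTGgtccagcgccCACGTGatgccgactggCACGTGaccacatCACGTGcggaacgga
Atp6v0b: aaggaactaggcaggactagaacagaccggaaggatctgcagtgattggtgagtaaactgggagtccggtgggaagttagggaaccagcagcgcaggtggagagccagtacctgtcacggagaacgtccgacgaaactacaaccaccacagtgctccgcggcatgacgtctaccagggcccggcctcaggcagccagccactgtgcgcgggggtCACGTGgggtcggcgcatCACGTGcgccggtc
Atp6v1a: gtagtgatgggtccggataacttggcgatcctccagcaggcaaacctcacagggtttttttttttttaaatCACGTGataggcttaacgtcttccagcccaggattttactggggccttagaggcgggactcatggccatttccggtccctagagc
Lamp1 has 4 copies, 61, 45, 28 and 15 bases before its start, Atp6v0b has 2, 36 and 18 bases before its start, and Atp6v1a has 1, 131 bases before its start. Windows from 250 bases before to 50 bases after the start were held for 34 of the 44 genes, and not for Atp6v0a2, Atp6v0d2, Atp6v1b2, Atp6v1c1, Atp6v1g1, Atp6v1h, Ctsb, Ctse, Ctsh and Ctsw. CACGTG, which reads the same on both strands, was in a window of 9 of these 34 genes (26.5%), against 8.09% of the 27025 genes of the whole promoter set. The 9 were Atp6v0b, Atp6v0d1, Atp6v0e, Atp6v1a, Ctsa, Ctsd, Ctsf, Ctsl and Lamp1, all of them among the 33 tested genes. The longer TCACGTGA, which contains the first motif, was in 5 genes (14.7%), namely Atp6v0d1, Atp6v0e, Atp6v1a, Ctsa and Ctsd, against 1.12% of all genes. The longest form searched, a CLEAR element that contains both, was in none of the 34 and in 0.37% of all genes. A match is a run of letters and does not show binding.

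Together the 44 genes took between 7996 CPM in male 1 and 10017 CPM in female 4, a 1.25-fold range. Within that sum the mean levels of the tested genes ran from 1.36 CPM for Atp6v0a4 to 1305 CPM for Atp6v1f. The means of Atp6v1f and Atp6ap1 exceeded 1000 CPM, 17 genes lay between 100 and 1000 CPM, 9 between 10 and 100 CPM and 5 between 1 and 10 CPM. Between the lowest and the highest library the tested genes differed by a median of 2.44-fold, against 2.60-fold over all tested genes above 0 in every library, and the narrowest range was that of Atp6v1c1 (1.26-fold) and the widest that of Lamp5 (29.4-fold).

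**Figure D1:**
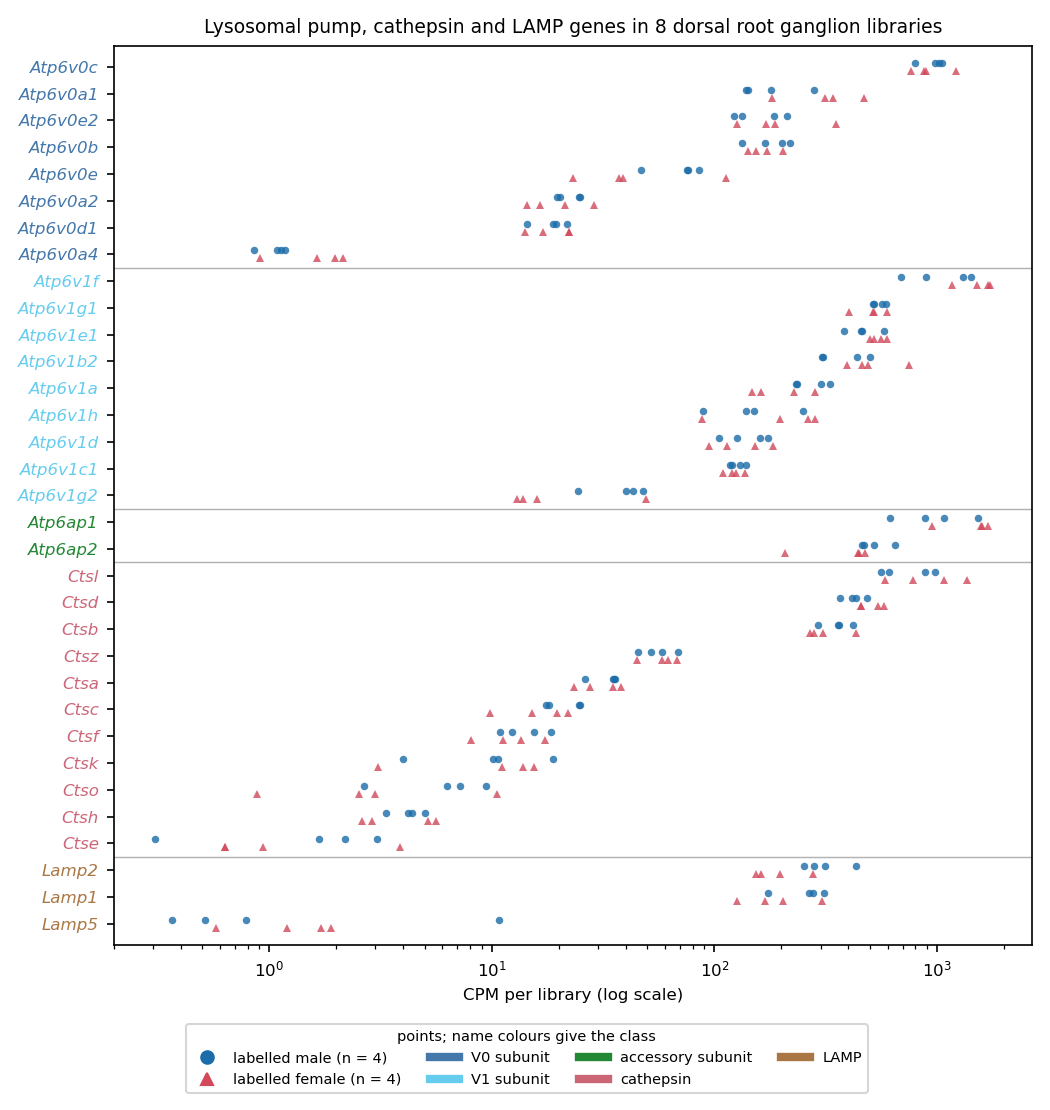
CPM of each of the 33 tested genes in every library, on a log axis, with circles for the 4 libraries labelled male and triangles for the 4 labelled female. The circles and triangles of every gene overlap, and single values run from 0.308 CPM for Ctse in male 4 to 1735 CPM for Atp6v1f in female 3.

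In the V0 sector the most abundant gene was Atp6v0c (ENSMUSG00000024121.13, chromosome 17, 24163866 to 24169702), which encodes the proteolipid of the rotor ring that carries the protons. It stood at 981, 1026, 1055 and 797 CPM in male 1 to 4 and at 875, 1219.6, 768 and 889.8 CPM in female 1 to 4. Female 2 was highest and female 3 lowest, and the label groups overlapped. Atp6v0b, the related ring proteolipid c″, had a mean of 174 ± 30.8 CPM (SD, n = 8) and followed Atp6v0c closely: the ratio of Atp6v0c to Atp6v0b CPM within a library lay between 4.72 and 6.01, a 1.28-fold range and the narrowest of 6 ratios compared. Pseudogene copies of Atp6v0c exist and could share reads with it. Atp6v0d1, whose product couples the ring to the central stalk, had 21.7, 19.4, 18.9 and 14.5 CPM by male label and 17.0, 22.3, 22.2 and 14.1 CPM by female label. These levels were low beside the ring genes and again overlapped between the labels.

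Subunit a holds the channels through which protons enter and leave the ring, and its paralogues direct the pump to different membranes. Atp6v0a1 (ENSMUSG00000019302.16, chromosome 11, 101009452 to 101063719), the form abundant in neurons and synaptic vesicles, stood at 139, 141, 179.8 and 280.3 CPM in male 1 to 4 and 468, 181, 341 and 314 CPM in female 1 to 4. Female 1 was highest, while female 2 lay with male 3, so that the groups overlapped. The log2 difference, female minus male, was 0.79 (SE 0.32, 95% interval 0.09 to 1.50, limma adjusted p = 0.446) with all 8 libraries and 0.48 (SE 0.35, 95% interval −0.32 to 1.27, limma adjusted p = 0.946) with the 6. Its unadjusted p with 8 libraries was 0.0304. Atp6v0a2, a form of the Golgi and endosomes, had 24.6, 20.2, 19.7 and 24.8 CPM and 28.8, 21.4, 14.4 and 16.5 CPM. Its log2 difference was −0.17 with 8 libraries, −0.30 with 6, and 0.01 with 8 under median ratio scaling. Atp6v0a4, best known from the acid-secreting intercalated cells of the kidney, lay between 0.855 and 2.13 CPM. Of the 5 listed markers of those kidney cells, Foxi1 had no read in any library and Slc4a1 had a mean of 3.08 CPM. Slc26a4, Slc4a9 and Rhcg were at or below 3 reads in every library. Atp6v0a4 shares exon sequence with D630045J12Rik on the same strand and Tmem213 on the other, so that its few reads may belong to either.

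Of the reads of these 3 genes in a library, Atp6v0a1 took 84.6% to 95.5%, Atp6v0a2 4.03% to 14.9% and Atp6v0a4 0.368% to 0.670%. With Tcirg1, the osteoclast form a3, counted in, Tcirg1 took 1.21% to 8.69%. The 7 listed osteoclast markers include Tcirg1 itself, with a mean of 12.6 CPM, and 3 of the 7 were tested. All 7 summed to 23.1 to 47.1 CPM by male label and 19.2 to 38.0 CPM by female label. Among them, Mmp9 had a mean of 14.6 CPM and Calcr was at or below 3 reads in every library. The share of Atp6v0a1 was lowest in male 1 and highest in female 3, and the label groups overlapped (88.1 ± 3.06% and 93.2 ± 2.87%, SD, n = 4 each).

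Subunit e is a small membrane protein of V0, and the shares of its paralogues varied most between libraries. Atp6v0e (ENSMUSG00000015575.14, chromosome 17, 26663231 to 26699647), the widely expressed form, had 75.9, 85.6, 75.2 and 47.0 CPM by male label and 23.2, 112, 38.7 and 37.2 CPM by female label. Female 2 was highest, above all male values, and the other 3 female libraries lay below all of them. Atp6v0e2, the form enriched in the brain, had 123, 133, 186 and 211 CPM and 352, 187, 127 and 171 CPM, with female 1 highest. The ratio of Atp6v0e2 to Atp6v0e was 1.62, 1.55, 2.47 and 4.50 in male 1 to 4 and 15.2, 1.66, 3.27 and 4.59 in female 1 to 4, a 9.81-fold range and the widest of the 6 ratios. It was lowest in male 2, male 1 and female 2, which stand on one side of the first principal component, and highest in female 1, on the other side. Atp6v0e2 gave 73.8 ± 11.9% of the reads of both genes (SD, n = 8; 60.8% to 93.8%). The log2 difference of Atp6v0e was −0.64 (SE 0.41, 95% interval −1.54 to 0.27, limma adjusted p = 0.483), and −0.29 with 6 libraries. Markers of glia and fibroblasts, cells that accompany the neurons, varied across the same libraries: the 7 satellite glia markers, all tested, summed to 1304, 1351, 1039 and 699.7 CPM by male label and 542, 1268, 692 and 774 CPM by female label, and the 7 fibroblast markers, all tested, to 2059, 2293, 1578 and 1138 CPM and 632, 2427, 942 and 1491 CPM. Their part in the ratio was not tested. In whole ganglia fewer cells of a type and less RNA per cell cannot be told apart.

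**Figure D2:**
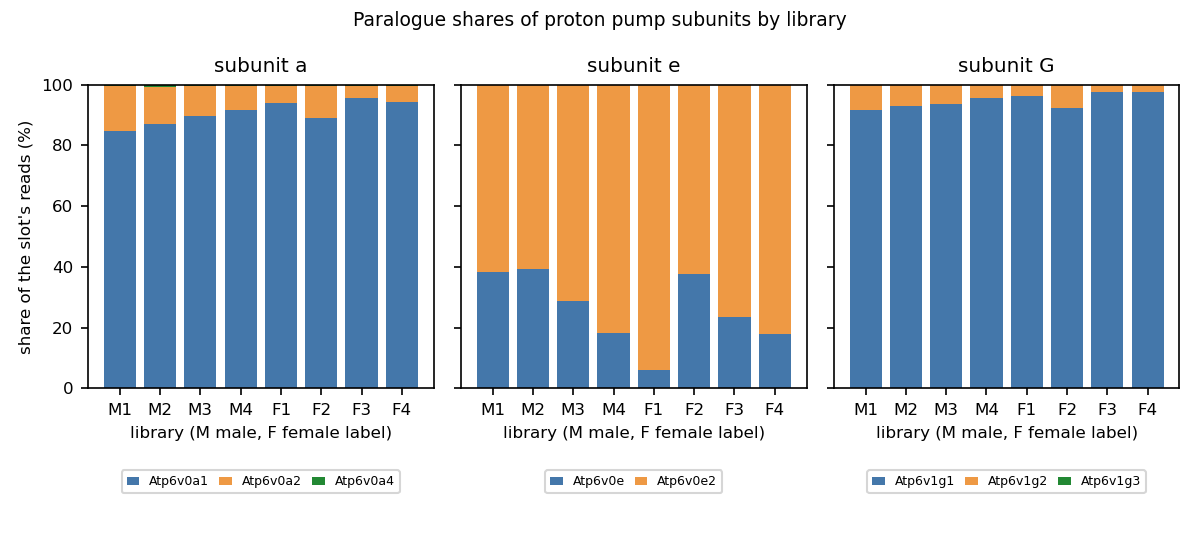
Share (%) of each paralogue in the reads of subunits a, e and G of the proton pump, one bar per library (M male, F female label). Atp6v0a1 and Atp6v1g1 take most reads of their subunit in every library, while the share of Atp6v0e runs from 6.17% in female 1 to 39.2% in male 2.

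In the V1 sector, the catalytic subunit A is encoded by Atp6v1a and its partner B by Atp6v1b2. Atp6v1a (ENSMUSG00000052459.13, chromosome 16, 44085402 to 44139705) stood at 301, 332, 236 and 233 CPM in male 1 to 4 and at 228, 284, 147 and 162 CPM in female 1 to 4. Male 2 was highest and female 3 lowest, with overlap. Atp6v1b2 had 305, 307, 437 and 501 CPM and 745, 395, 462 and 492 CPM, with female 1 highest and male 1 lowest. The pump holds both proteins in equal number, which reads of RNA need not follow. The ratio of Atp6v1a to Atp6v1b2 reads ran from 0.307 in female 1 to 1.08 in male 2, a 3.52-fold range. The log2 difference of Atp6v1a was −0.45 (SE 0.25, 95% interval −1.01 to 0.10, limma adjusted p = 0.458), and −0.47 with 6 libraries. Atp6v1b1, the form of B used in kidney and inner ear, had no read in any library, which allows up to 0.0395 CPM over all 76009940 reads.

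Of the central stalk, Atp6v1f (subunit F; ENSMUSG00000004285.12, chromosome 6, 29467718 to 29470512) was the most abundant gene of all 44, at 1305 ± 372 CPM (SD, n = 8). Its levels were 690.1, 892, 1311 and 1428 CPM by male label and 1516, 1168, 1735 and 1703 CPM by female label. Male 1 and male 2 were lowest, and female 2 was the only female library below male 3 and male 4. The log2 difference was 0.55 (SE 0.29, 95% interval −0.09 to 1.18, limma adjusted p = 0.453), and 0.35 with 6 libraries. Atp6v1d, the other stalk subunit, had a mean of 139 ± 33.2 CPM (SD, n = 8). Atp6v1h, whose product keeps detached V1 from wasting ATP, ranged 3.21-fold, from 87.9 CPM in female 2 to 282 CPM in female 3, and overlaps Rgs20 on the opposite strand.

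The outer stalks are built from subunits E and G, and subunit C locks them to V0 when the sectors join. Atp6v1e1 had 458, 459, 577 and 381 CPM in male 1 to 4 and 560.0, 596, 523 and 499 CPM in female 1 to 4, and Atp6v1c1 had 138, 119.9, 131 and 117 CPM and 137, 125, 109 and 120.4 CPM. The label groups overlapped for both, and Atp6v1c1 varied least of the 33 tested genes. Its paralogue Atp6v1c2 took at most 1.26% of their reads, and Atp6v1e2 at most 0.0340% beside Atp6v1e1. Atp6v1g1 stood at 524, 568, 592 and 517 CPM and 401, 594, 519 and 515 CPM, with female 1 lowest.

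The neuronal form of G, Atp6v1g2 (ENSMUSG00000024403.16, chromosome 17, 35233660 to 35238767), varied far more, with 47.8, 43.2, 39.9 and 24.4 CPM by male label and 16.0, 49.2, 13.7 and 12.9 CPM by female label. Female 2 held the highest value of all 8, and the other 3 female libraries lay below every male one. The log2 difference was −0.92 (SE 0.40, 95% interval −1.79 to −0.05, limma adjusted p = 0.446) with 8 libraries, with an unadjusted p of 0.0408, and −0.72 (SE 0.50, 95% interval −1.87 to 0.43, limma adjusted p = 0.946) with 6. Without female 2, but with both replicate 1 libraries kept, it was −1.35 with a limma adjusted p of 0.0364. Atp6v1g2 took 8.35% of the reads of subunit G in male 1 and 2.45% in female 4, and its exons overlap those of Nfkbil1 on the opposite strand. Of the neuron markers, the CGRP gene Calca had 641, 613, 483 and 346 CPM by male label and 106, 629.6, 274 and 204 CPM by female label, with the same 3 female libraries below every male one, while the sum of all 10, led by Uchl1, was 12112, 10751, 15818 and 16689 CPM and 20382, 13782, 21525 and 18635 CPM. Of the 10 markers 6 had positive and 4 negative log2 differences with 8 libraries (median 0.08). Calca was singled out after its values were seen, and the part of neuron content in the Atp6v1g2 levels was not tested.

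The accessory subunits Atp6ap1 (Ac45) and Atp6ap2 (the prorenin receptor) help to assemble the pump, and both genes are on the X chromosome. Atp6ap1 (ENSMUSG00000019087.13, chromosome X, 74297097 to 74304721) had 618, 883, 1074 and 1531 CPM in male 1 to 4 and 1689, 953, 1600.3 and 1569.5 CPM in female 1 to 4. Female 2 and male 1 to 3 lay below the other 4 libraries, so that one library of each label stood with the other group. The log2 difference was 0.54 (SE 0.32, 95% interval −0.15 to 1.24, limma adjusted p = 0.466) with 8 libraries and 0.24 with 6. Atp6ap2 had 521, 459.9, 472 and 648 CPM and 208, 441, 447 and 474 CPM, with female 1 far below the rest. The Atp6ap2 difference was −0.48 (SE 0.28, 95% interval −1.10 to 0.15, limma adjusted p = 0.468), and −0.20 with 6 libraries. The ratio of Atp6ap1 to Atp6ap2 ran from 1.19 in male 1 to 8.13 in female 1, the libraries whose sex genes went against their labels, and lay between 1.92 and 3.58 in the other 6.

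**Figure D3:**
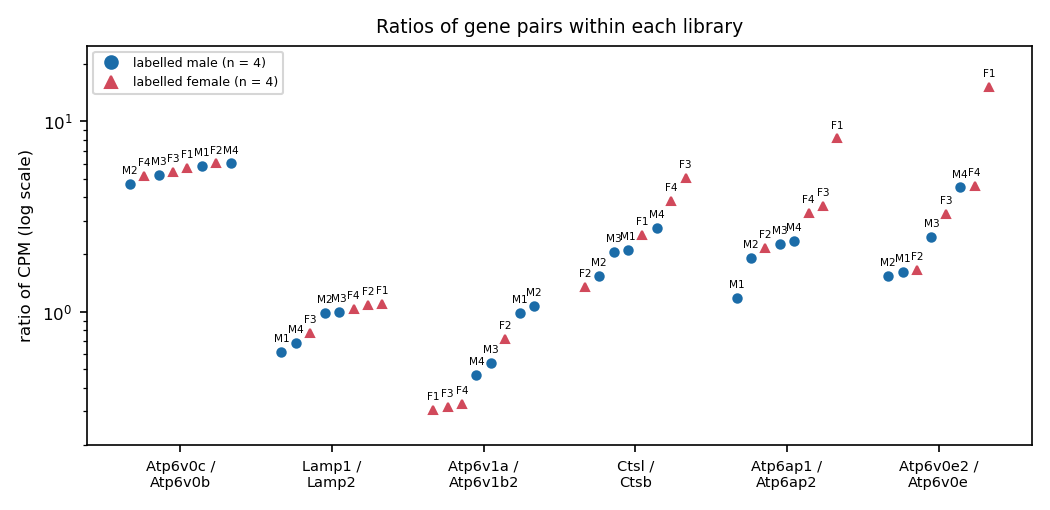
Ratio of CPM of 6 gene pairs within each library, on a log axis, with the 8 libraries of each pair in rising order (M male, F female label). Atp6v0c to Atp6v0b stays between 4.72 and 6.01, while Atp6ap1 to Atp6ap2 and Atp6v0e2 to Atp6v0e reach 8.13 and 15.2 in female 1.

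Among the cathepsins, Ctsl, Ctsd and Ctsb together gave 88.9% to 94.1% of the reads. Ctsl, a cysteine endopeptidase, stood at 880.2, 559, 606 and 985 CPM by male label and 784, 583, 1358 and 1074 CPM by female label. Female 3 was highest and male 2 lowest, with overlap. Ctsd, the main aspartic protease of lysosomes, had 434, 368, 416 and 487 CPM and 578, 456, 454 and 542 CPM, and Gm49369 shares its exons on the same strand. Ctsb, a cysteine protease that can trim dipeptides from protein ends, had 418, 362, 292 and 358 CPM and 309, 433, 269 and 281 CPM, and its exons overlap those of Fdft1 on the opposite strand. Ctsd and Ctsb ranged 1.57-fold and 1.61-fold between libraries, and Ctsl 2.43-fold, so that the ratio of Ctsl to Ctsb ran from 1.35 in female 2 to 5.06 in female 3. The log2 difference of Ctsl was 0.29 (SE 0.31, 95% interval −0.39 to 0.98, limma adjusted p = 0.631), and 0.45 with 6 libraries.

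Of the less abundant cathepsins, Ctsz, a carboxypeptidase, averaged 57.2 ± 9.22 CPM (SD, n = 8) and Ctsa, a serine carboxypeptidase that also stabilizes lysosomal galactosidase and neuraminidase, 32.1 ± 5.43 CPM (SD, n = 8). Ctsc, the dipeptidyl peptidase that activates granule proteases of immune cells, had 24.8, 24.7, 17.5 and 18.2 CPM in male 1 to 4 and 19.7, 22.0, 9.83 and 15.2 CPM in female 1 to 4. Its log2 difference was −0.37 (SE 0.27, 95% interval −0.97 to 0.22, limma adjusted p = 0.513), and −0.39 with 6 libraries. Ctso had 7.21, 9.46, 6.28 and 2.67 CPM and 2.97, 10.5, 0.882 and 2.53 CPM, an 11.9-fold range with female 2 highest and female 3 lowest, and a log2 difference of −0.73 (SE 0.51, 95% interval −1.85 to 0.40, limma adjusted p = 0.503), which was −0.62 with 6 libraries. Ctsf averaged 13.4 CPM, Ctsk, the collagen-degrading protease of osteoclasts, 10.9 CPM, Ctsh 4.15 CPM and Ctse, an aspartic protease of immune and mucosal cells, 1.66 CPM. Macrophages are rich in cathepsins, and 14 of their 15 listed markers were tested. The 15 summed to 215 to 312 CPM by male label and 345 to 481 CPM by female label, with C1qa giving the most and Cd68 at no more than 1.48 CPM. The label groups did not overlap in that sum, but without C1qa the other 14 summed to 122 to 175 CPM and 145 to 229.7 CPM, which overlapped. Of the 14 tested markers 7 had negative log2 differences with 8 libraries (median 0.02) and 6 with 6 libraries (median 0.13), and none was called. None of the 15 was at 0 in any library, but some values lay under 3 reads, such as Adgre1 and Cd68 at 0.126 CPM in female 3. The part of macrophage number in the cathepsin levels was not tested. Ctsq and Ctsw had 1 read each in all 8 libraries, and Ctsj, Ctsm and Ctsr none. Ctsj, Ctsm, Ctsq and Ctsr belong to a placental group found in rodents, and Ctsw to cytotoxic lymphocytes.

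Summed by class, the LAMP genes varied most, from 697 CPM in male 1 to 291 CPM in female 3 (2.40-fold). The ranges were 1.34-fold for V0, 1.43-fold for V1, 1.53-fold for cathepsins and 1.92-fold for the accessory subunits. The LAMP sum rests almost wholly on Lamp1 and Lamp2, while the V0, V1 and cathepsin sums pool more genes, whose differences can cancel. Singly, Lamp1 ranged 2.47-fold and Lamp2 2.79-fold, near the medians of the tested genes described here (2.44-fold) and of all tested genes (2.60-fold). Lamp2 (ENSMUSG00000016534.15, chromosome X, 38401357 to 38456454), an X-linked gene of which an isoform is the receptor of chaperone-mediated autophagy, stood at 431, 316, 280.1 and 254 CPM in male 1 to 4 and 154, 278, 163 and 197 CPM in female 1 to 4. Male 1 was highest, and only female 2 reached into the male range. The log2 difference was −0.70 (SE 0.25, 95% interval −1.25 to −0.15, limma adjusted p = 0.446) with 8 libraries, with an unadjusted p of 0.0174, the smallest of the 33. With 6 libraries it was −0.44 (SE 0.26, 95% interval −1.04 to 0.16, limma adjusted p = 0.946). Without female 2, but with both replicate 1 libraries kept, it was −0.88 with a limma adjusted p of 0.0425. Lamp1, the most used marker protein of lysosomes and the gene with 4 copies of CACGTG, had 266, 311, 279 and 174 CPM and 169, 304, 126 and 203 CPM. Female 2 and the first 3 male libraries were highest, and the log2 difference was −0.40 (SE 0.29, 95% interval −1.04 to 0.24, limma adjusted p = 0.516), and −0.32 with 6 libraries. The ratio of Lamp1 to Lamp2 lay between 0.616 in male 1 and 1.10 in female 1.

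Lamp5, a LAMP of neurons in the brain, had 0.367, 10.8, 0.784 and 0.513 CPM by male label and 1.71, 0.576, 1.89 and 1.20 CPM by female label. The value of male 2 stood far above the other 7, in the library with 311 CPM of central nervous system markers (among them Slc1a2 at 58.8 CPM and Mobp at 56.0 CPM), whose part was not tested. Lamp3, the LAMP of mature dendritic cells, had 4 reads in all libraries together.

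Of the 11 genes below the filter, Atp6v1c2 had 49 reads in all libraries together, Atp6v0d2 11, Atp6v1e2 5, Lamp3 4 and Atp6v1g3 2. Several are the forms known from kidney, osteoclasts or testis. Atp6v0d2, found in osteoclasts and kidney, gave at most 2.17% of the reads of subunit d, with no read in male 2, female 1 and female 3. The depth allows a gene with no read in 8 libraries up to 0.0395 CPM, a floor of 3 reads that covers counting error alone.

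The comparison by label asks which genes differ between ganglia labelled male and female. With 8 libraries it is not a clean comparison of the sexes, since the sex genes of both replicate 1 libraries went against their labels. That fit called 0 of the 5 sex genes, with a limma adjusted p of 0.512 for Xist. None of the 33 tested genes passed with 8 or with 6 libraries. With 8 libraries limma called 0 of 33 at an adjusted p under 0.05, where it called 0% of all 14505 genes. At an unadjusted p under 0.05 stood 3 of the 33, Lamp2, Atp6v0a1 and Atp6v1g2, against 11% of all genes. The values of the label groups did not overlap in 0 of 33, against 4.23% of all genes. With 6 libraries limma called 0 of 33, against 0.0414% of all genes, which is 6 genes of which 5 were the sex genes Xist, Ddx3y, Eif2s3y, Uty and Kdm5d. At an unadjusted p under 0.05 stood 0 of 33, against 2.43%, and 0 of 33 did not overlap, against 7.59%.

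The median log2 difference of the 33 genes was −0.09 with 8 libraries, beside −0.18 over all tested genes, and 0.03 with 6, beside −0.12. With 8 libraries 21 differences were negative (63.6%, against 67.5% of all tested genes) and 12 positive, and with 6 libraries 16 were negative (48.5%, against 64.4%) and 17 positive. After median ratio scaling, which moved the median of all genes to −0.02, the median of the 33 was 0.10 with 8 libraries. Of the 33, 11 were then negative (33.3%, against 51.5% of all tested genes), so the sign of a small difference depends on the scaling. By class, 4 of 8 V0 genes, 5 of 9 V1 genes, 1 of 2 accessory genes, 8 of 11 cathepsin genes and 3 of 3 Lamp genes were negative with 8 libraries. After median ratio scaling these counts were 1, 2, 1, 4 and 3, to be set beside the 51.5% of all tested genes. With 6 libraries as deposited, 3 of 11 cathepsin genes and 3 of 3 Lamp genes were negative. The narrowest 95% interval, that of Atp6v1c1, ran from −0.42 to 0.34, and that of Ctso from −1.85 to 0.40.

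**Figure D4:**
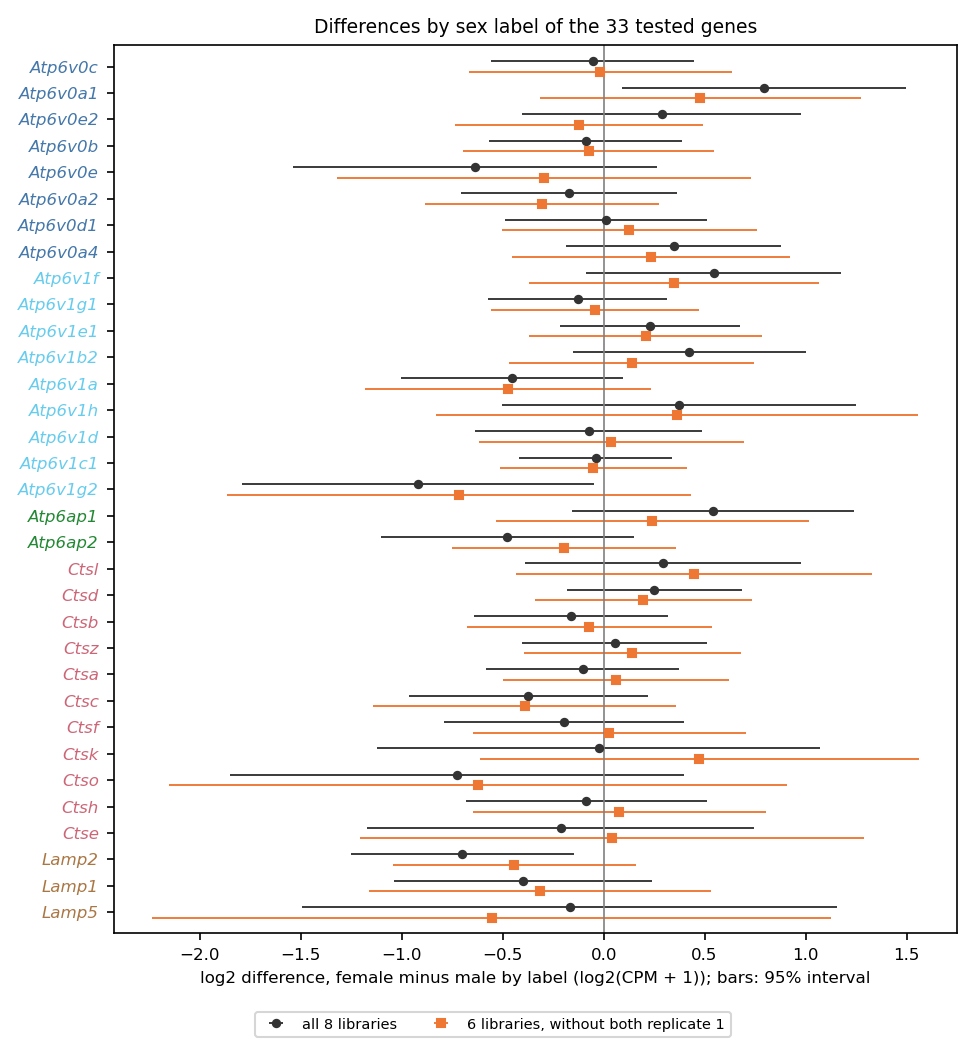
Log2 difference between libraries labelled female and male for each of the 33 tested genes, on log2(CPM + 1), with 95% intervals, for all 8 libraries (circles) and for the 6 without both replicate 1 (squares). The intervals of Lamp2, Atp6v0a1 and Atp6v1g2 leave 0 out with 8 libraries, and no interval does with 6.

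With both replicate 1 libraries kept, these counts changed when female 2 was left out or the libraries were weighted. Without female 2, limma called 1354 genes (9.33%), among them 4 of the 33: Atp6v0a1 at 1.05, Atp6v0e at −1.08, Atp6v1g2 at −1.35 and Lamp2 at −0.88, with adjusted p from 0.0364 to 0.0425. Array weights, which let each library count by how well it fits its group, gave female 2 the lowest weight (0.312) and called 4363 genes (30.1%). Of the 33 these were 9, namely Atp6ap1, Atp6v0a1, Atp6v1f and Atp6v1h with higher and Atp6v0e, Atp6v1a, Atp6v1g2, Ctso and Lamp2 with lower values by female label. Weights were next lowest for male 4 (0.437) and highest for female 4 (3.13). With the 6 libraries, leaving out female 2 gave 5 genes and array weights gave 6, with 0 of the 33 in either. Female 2 was the highest library for 11 of the 33 genes (33.3%, against 16.4% of all genes) and the lowest for Atp6v1h. The lowest value was in female 1 for 10 genes (30.3%, against 29.3% of all genes) and in female 3 for 8 (24.2%, against 21.3%).

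**Figure D5:**
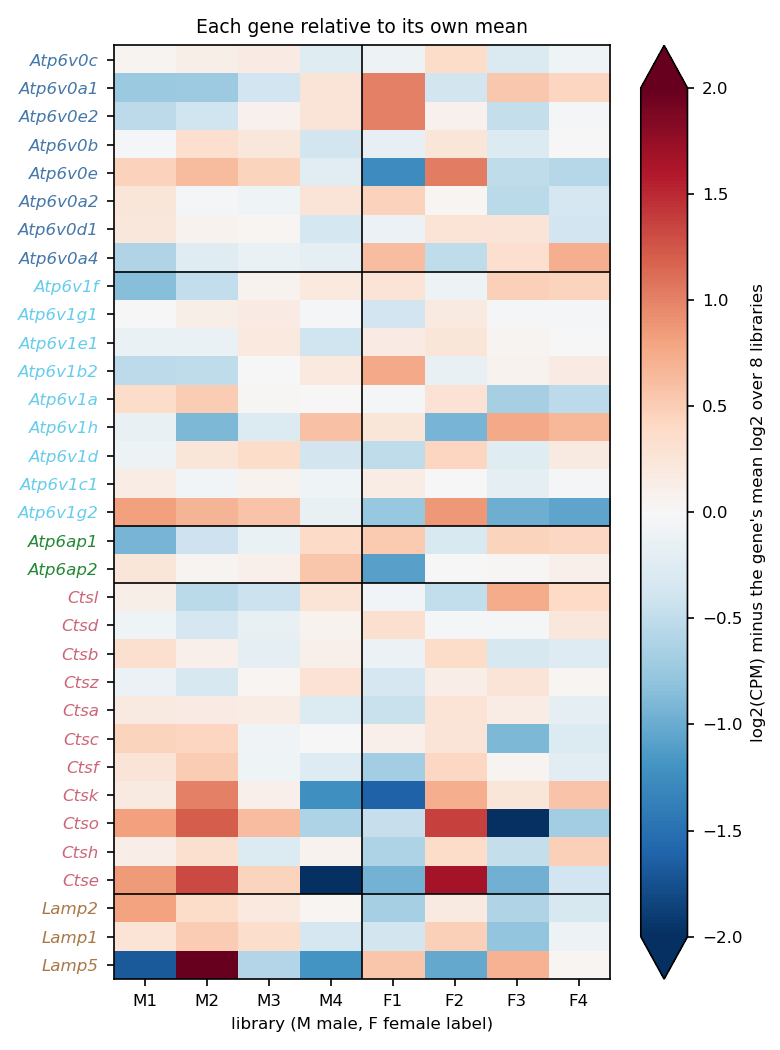
Log2 CPM of each tested gene in each library minus the gene's mean log2 over the 8 libraries (red above, blue below its mean; colours end at 2 in either direction). Atp6v0a1 and Atp6ap1 are below their means in male 1 to 3 and female 2 and above them in the other 4 libraries, and Atp6v1g2, Atp6v0e, Ctso and Ctse show the opposite order.

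The other listed genes of the lysosome gave no call by label with 8 or with 6 libraries. The counts of negative differences with 8 libraries are to be set beside the 67.5% of all tested genes and their medians beside −0.18. Of 31 lysosomal hydrolase genes 29 were tested, of which 21 had negative differences (median −0.16). The most abundant were Ids, which removes sulfate from glycosaminoglycans, with a mean of 406 CPM, the legumain gene Lgmn with 202 CPM, the glycogen-degrading Gaa with 144 CPM and Aga with 119 CPM. Of 26 genes of membrane proteins, cofactors and transport, all tested, 20 had negative differences (median −0.32), and Psap, the precursor of the saposins, led with 2521 CPM, followed by Laptm4a with 1355 CPM, Cd63 with 549 CPM and Scarb2, the receptor of glucocerebrosidase, with 260.1 CPM. The mean level of Psap in CPM exceeded that of each of the 44 genes.

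Of 11 genes for assembly and regulation of the pump, all tested, 7 had negative differences (median −0.13), led by Ncoa7, whose product binds the pump, with 271 CPM, Ccdc115 with 191 CPM, Dmxl2 with 134 CPM and the assembly factor Vma21 with 132 CPM. Of 6 cathepsin inhibitor genes 5 were tested, 4 of them negative (median −0.31). Serpinb6a had a mean of 318 CPM and Cst3, the gene of cystatin C, 155 CPM, with 235, 314, 161 and 61.0 CPM by male label and 31.8, 261, 76.8 and 101 CPM by female label. Male 2 was highest and female 1 lowest for Cst3, and the groups overlapped. Of 10 genes of the transcriptional control of lysosomes 9 were tested, 6 of them negative (median −0.35), led by Lamtor1 with 258 CPM and Rragc with 37.2 CPM. With 6 libraries 23 of 29 hydrolase genes, 20 of 26 membrane and transport genes, 6 of 11 assembly genes, 3 of 5 inhibitor genes and 6 of 9 control genes were negative, with medians of −0.12, −0.21, −0.03, −0.05 and −0.28. After median ratio scaling the medians with 8 libraries were 0.02, −0.13, 0.06, −0.12 and −0.16, beside −0.02 over all tested genes.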

How the data were processed

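Total RNA of dorsal root ganglia was depleted of ribosomal RNA and made into QuantSeq 3′ end libraries, per the labels' protocols. The submitters' processing notes list Cufflinks 2.2.1, Bowtie2 2.2.9, TopHat2 2.1.1 and FastQC 0.11.5, and the builds GRCm38.p4 and mm10. The role of each tool, the annotation and the strand setting are not given in the sources used, so reads of overlapping antisense genes cannot be told apart. Besides the tested genes whose overlaps are named with their values, exons of Atp6v0a2, Atp6v0b, Atp6v1e1, Ctsa, Ctsl, Ctsz and Lamp1 overlap those of other genes. For Ctsl these include the pseudogene Gm49230 on the same strand. The authors deposited 1 table per sex under the name TPM, but the values behave as CPM: each library summed to 1000000, and 1 step shared by all genes divided 98.3% to 98.6% of the values above 0 and under 200 reads into a whole number of reads (tolerance 0.05). That step gives the depth. Since some values stayed fractional, no count model was used, although CPM keeps depth.

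Rows that share a symbol were summed (110 symbols, 48431 rows to 48315). Genes whose mean over the libraries reached 1 CPM were tested as log2(CPM + 1), which understates changes of low genes, with limma 3.58.1 in R 4.3.3 (moderated test with a variance trend, two-sided, Benjamini-Hochberg adjustment over all 14505 genes, threshold 0.05) and tested on simulated data. Libraries were grouped by label. No 2 of the 8 libraries held identical values. Values per library are given for the 3 most abundant genes of each class. They are also given for the 2 of each class with the smallest p in each fit, with 8 and with 6 libraries. So are those of every paralogue with at least 5% of its subunit's reads. Other listed genes are mainly the up to 4 most abundant per list, and Calca was named outside that rule. The genes and lists were chosen with earlier results of these data known. The list of cathepsin inhibitors first held Bin1, which encodes a membrane-bending protein and no inhibitor, and it was left out after the values were seen (with it, 4 of 6 tested genes were negative, median −0.28). The macrophage sum without C1qa was also added after the values were seen. Positions are from GENCODE M21, 1-based, matched by identifier (99.2% of rows), and promoters from RefSeq (GRCm38.p6). Alternatives were 2 other pseudocounts, 2 filters, 3 scalings, no variance trend, array weights, a block for the replicate number and fits without single libraries or without both replicate 1 libraries. Protein sequences, planned for comparing paralogues, and ribosome profiling were not analysed here.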

Additional observations from a re-analysis of the deposited data

Results flagged for a closer look

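By Dixon's criterion, a single library stood apart from the other 3 in 7 of 76 groups of 4 libraries, over tested genes and class sums. Chance meets that criterion in about 1 in 20 groups of independent, normally distributed values. The 76 groups share the same libraries, and the class sums contain genes also counted singly, so no excess can be read from the 7. Female 2 accounted for 4 of the 7. It had the highest Atp6v1g2 by female label, at 49.2 CPM against 12.9 to 16.0 CPM, and the highest Ctse, at 3.87 CPM against 0.630 to 0.934 CPM. It also had the lowest Atp6ap1, at 953 CPM against 1569.5 to 1689 CPM, and the lowest sum of V1 genes, at 3483 CPM against 3896 to 3922 CPM. Female 1 had the lowest Atp6ap2, at 208 CPM against 441 to 474 CPM. By male label, male 4 had the lowest Ctsa, at 26.3 CPM against 34.9 to 35.7 CPM, and male 2 the highest Lamp5, at 10.8 CPM against 0.367 to 0.784 CPM.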

How the results depend on the processing

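The count of 0 genes called by label with 8 libraries became 4363 with array weights, with 9 of the pump, cathepsin and LAMP genes among them, and 6 without both replicate 1 libraries. Leaving out 1 library at a time gave between 0 and 1354 genes and between 0 and 4 of the described genes, and only the fit without female 2 gave more than 0. With 6 libraries, leaving out 1 more gave between 3 and 5 genes and none of the described ones. The log2 difference of Atp6v0a2 reversed under each of the 3 other scalings, from −0.17 to 0.0148 under median ratio scaling, 0.0132 under TMM scaling and 0.0140 under quantile normalization, and the cause was not tested. For the 13 genes with named differences, these 3 were the sign changes among 143 alternative values, and none of the 104 values without 1 library changed sign. The 2 filters, the fit without a variance trend and the replicate block leave a log2 difference as it is, so their values among the 143 could not change sign. The 13 genes were also picked for the smallest p of their class in these fits, so these counts do not measure how stable the other genes are. Whether the shared replicate numbers pair libraries was looked at by the correlation of deviations from the group means. It was −0.31, 0.70, −0.15 and 0.44 for numbers 1 to 4. Female 2 correlated best with each of male 1, male 2 and male 3, so this measure cannot decide whether libraries were paired. The numbers were not taken as pairs. With the replicate block 0 genes were called, and 2694 had an unadjusted p under 0.05. Depth limits genes near the floor of 3 reads (0.247 to 0.400 CPM), such as Ctse and Lamp5 in several libraries.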

Other observations

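The V0 and V1 genes divided their sums differently between libraries. Atp6v0c gave 63.9% of the V0 reads in male 1 and 45.6% in female 1, while Atp6v0a1 gave 9.07% and 24.4%. In V1, Atp6v1f gave 25.2% of the reads in male 1 and 44.4% in female 3, and Atp6v1a 11.0% and 3.77%. Ctsl gave 35.4% of the cathepsin reads in female 2 and 61.1% in female 3, and Ctsb 26.3% and 12.1%. These libraries were chosen after their values were seen.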
